A study of Rattus norvegicus with 52 samples.

Results

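Rat dorsal root ganglia taken 24 and 48 h after an SN lesion were set against ganglia taken 6 and 12 h after it, which asks which transcripts change between the first hours and the days that follow. The comparison holds the 12 hybridisation channels titled SN24h, SN48h, SN6h and SN12h, 6 for each window, of 52 channels in the whole series. The labels give only the abbreviations SN and DR. Knowledge of the study, not the labels, gives their meaning: the sciatic nerve, which holds the peripheral axon branches, was injured in SN animals, and the dorsal root, which holds the central branches, in DR animals. Each of the 4 pools compared (SN24h, SN48h, SN6h and SN12h) was RNA from L4, L5 and L6 ganglia of 3 rats, hybridised 3 times on 2-colour arrays. The DR pools of the same 4 times, 7 channels in the later window and 9 in the earlier, and the CON(SN) pool, 3 channels, are used for comparison; no control enters the comparison of the windows itself. Strain, sex, age and surgery are not given in the sources used here.

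The 3 channels of a pool are repeated hybridisations of the same RNA, so p-values over channels measure only the spread between hybridisations of a pool, here estimated over all 52 channels of the series. The independent unit is the pool, 2 in each window. Differences are therefore given from a fit to channels (the channel fit) and set beside a fit to pool means (the pool fit), both with limma and Benjamini-Hochberg adjustment over all 8455 probes. The 2 pools of a window are different times, so no time has a second pool. The pool fit thus counts change between the times of a window as spread, and a gene that moved inside a window can miss its call. A probe was called in the channel fit at an adjusted p below 0.05 and a change of at least 1.5-fold, and in the pool fit at an adjusted p below 0.05. Values are channel intensities on the authors' normalised linear scale; log2 differences are the 24-48 h mean minus the 6-12 h mean, ± SE. Medians of the 12 channels lay between 120 and 123 and their upper quartiles between 376.5 and 395.5, and the number of arrays limits the precision. SN6h replicate 3 stood apart on the first principal component (-34.8, next of the 12 at -20.4), and results without it are given where it matters. Of 13 measured DRG neuron markers, 10 lay above the channels' upper quartile. Because whole ganglia were measured, fewer cells of a type and less RNA per cell cannot be told apart.

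Dorsal root ganglion neurons carry touch, temperature and pain signals through an axon with a peripheral and a central branch. When the peripheral branch is injured, signals from the axon switch the cell body to a growth state: stress-inducible transcription factors such as Atf3 appear, neuropeptides such as galanin and vasoactive intestinal peptide are made in place of others, and proteins that support axon growth accumulate. Satellite glia around the cell bodies and resident macrophages also react. Injury to the central branch is known to evoke a weaker growth response.

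Nearly all calls between the windows were rises. In the channel fit 58 of 8455 probes (0.686%) were higher at 24-48 h and 2 (0.0237%) were lower. The median difference of the 58 was 0.90, with a range of 0.59 to 3.59, against -0.0078 over all probes. In 45 of the 58 all 6 later channels lay above all 6 earlier ones, which held for 1.31% of all probes. Both later pools lay above both earlier pools in 57 of the 58, against 20% of all probes (23.3% lay the other way). The same channels made the calls, so both counts describe the 58 and are no separate support for them. Without SN6h replicate 3 the count was 48 higher and 0 lower. The 58 probes stood for 54 named genes and 4 probes with no gene name here. In the pool fit 8 probes (0.0946%) were called, all higher, and 346 had an unadjusted p below 0.05. They were Csrp3, Ankrd1, Gfap, Stmn4, Serpinb2, Il6, Nfil3 and Epb41l1, the first 7 of which were called in both fits. The pool call of Epb41l1, a cytoskeletal linker of the membrane, rested on 1 of its probes (0.83 ± 0.13, adjusted p = 0.0209) and was not shared by the channel fit (adjusted p = 0.809), nor by its brighter probe at -0.07. With the 7 SN lesion pools alone the pool fit called 0, with 414 at an unadjusted p below 0.05, so every pool call given below rests on the fit to all 16 pools. Without single channels the pool count ran between 4 (without SN6h replicate 3) and 19 (without SN24h replicate 2).

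**Figure D1:**
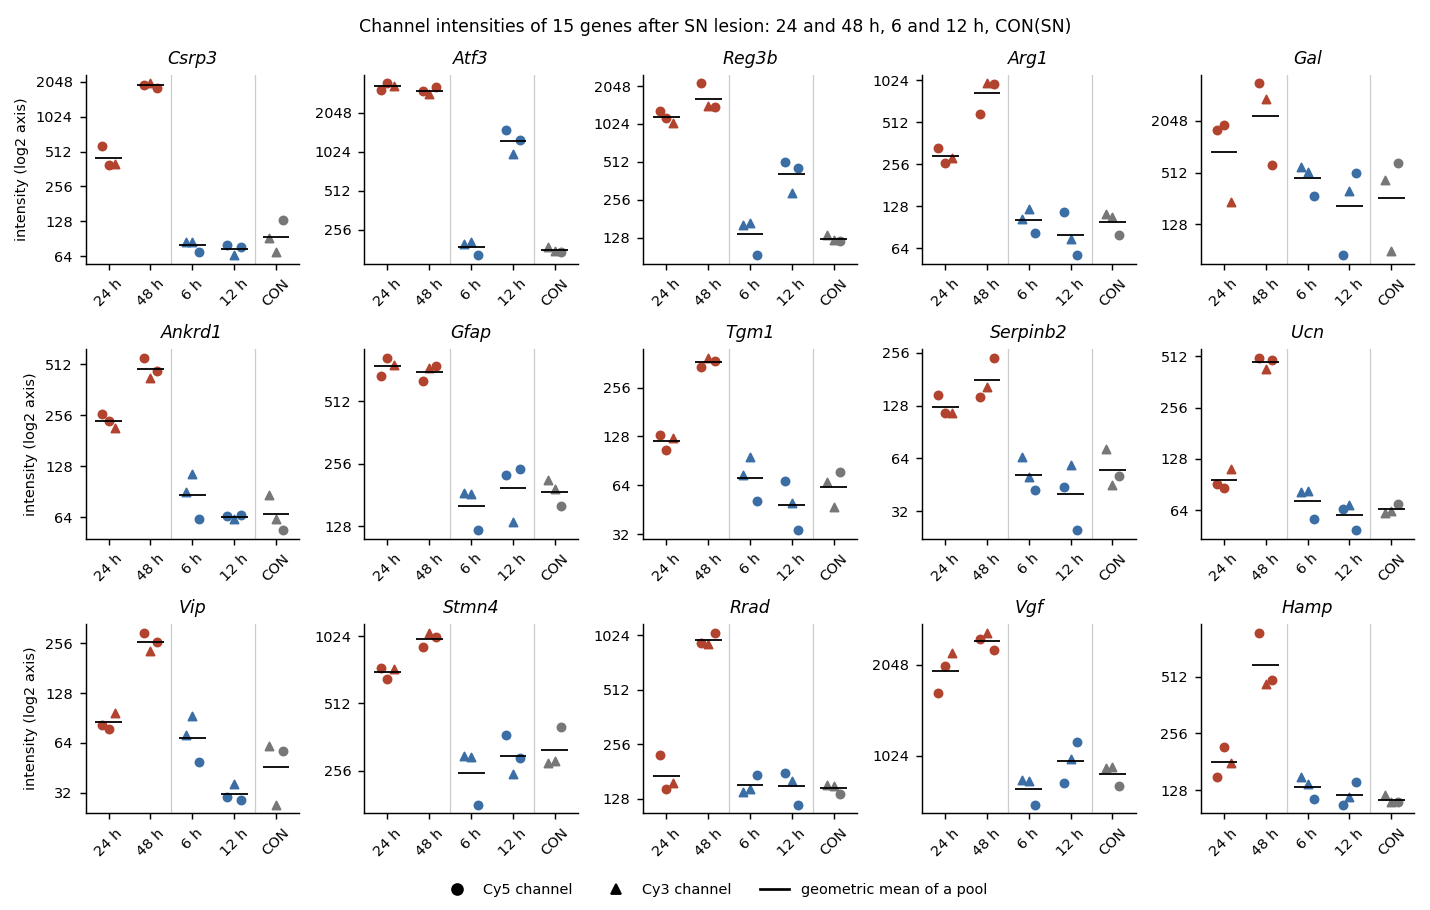
Intensities (log2 axis) of the 15 genes with the largest rises in every channel of SN24h and SN48h (red), SN6h and SN12h (blue) and CON(SN) (grey); circles are Cy5 channels, triangles Cy3 channels, and lines geometric means of a pool. Csrp3 lies between 395 and 2001 in the later window and between 65 and 85 in the earlier one, while Gal has single low channels in both windows.

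Transcription factors and nuclear cofactors of the injury response held the largest rise. Of 26 measured members of that list 7 rose and 0 fell, with a median of 0.20 against -0.0029 over all named genes. For this and every list count below, the share over all probes was 0.686% higher and 0.0237% lower. The lists were drawn up with earlier results of these data known, so their counts are descriptions and not tests. Csrp3, a muscle LIM protein that also acts in the nucleus, had 575, 395 and 399 in the SN24h channels and 1923, 2001 and 1822 in the SN48h channels. In the earlier window it had 84, 85 and 69 at 6 h and 79, 65 and 76 at 12 h, below the array median throughout. The windows did not overlap, and the difference was 3.59 ± 0.14 (adjusted p = 2.68e-22 in the channel fit and 0.0209 in the pool fit). Ankrd1, a cardiac ankyrin repeat cofactor, had 214, a median of 343.5 and 558 as lowest, middle and highest values at 24-48 h, against 63, 65.5 and 115 at 6-12 h. Its difference of 2.16 ± 0.15 was also called in both fits (1.46e-14 and 0.0209).

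Atf3, a stress-inducible bZIP factor that marks injured neurons, ran between 2862 and 3460 in the 6 later channels. The earlier window was itself split: 199, 206 and 162 at 6 h and 1502, 985 and 1251 at 12 h. The difference of 2.71 ± 0.16 had an adjusted p of 1.58e-16 in the channel fit, and the pool fit did not call it (0.219). The authors' deposited table gave a smaller difference of 1.98, with coefficients of 1.00 at 6 h and 3.35 at 12 h against their time zero.

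The remaining called members of the list moved less. The repressor Nfil3 had 201 to 249 in the later window and 108 to 164 in the earlier one, which do not overlap, and rose by 0.78 ± 0.12 (adjusted p = 1.54e-05, pool fit 0.0424). Crem, a factor that binds cAMP response elements, rose by 0.91 ± 0.18 with channels of 180 to 280 against 88 to 137. Smad1, a transducer of bone morphogenetic protein signals, rose by 0.69 ± 0.16; the call was lost in 5 of 18 alternatives, among them those without SN6h replicate 3, SN12h replicate 2 or SN48h replicate 3, and its difference in the authors' deposited table was 0.28. Klf6, a zinc finger factor, was called at 0.63 ± 0.16, a call kept in 9 of 18 alternatives and lost without SN6h replicate 2 or 3, SN12h replicate 2 or 3, SN24h replicate 1 or 2 or SN48h replicate 1 or 3. A further 3 genes known from nerve injury were not called between the windows: Jun (0.42 ± 0.19, adjusted p = 0.766), Stat3 (0.41 ± 0.21, adjusted p = 0.859) and Sox11 (0.32 ± 0.21, adjusted p = 0.978). Jun had 329 to 647 at 24-48 h and 251 to 614 at 6-12 h, so the windows overlap.

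Growth-associated effectors gave the longest row of rises. Of 37 measured genes 13 rose and 0 fell, with a median of 0.32, against 0.686% of all probes called higher. Its members, too, were chosen with earlier results of these data known, so the row describes the list only. The arginine-degrading enzyme Arg1, which feeds polyamine synthesis, had 261, a median of 462.5 and 976 at 24-48 h, against 57, 93 and 122 at 6-12 h, and rose by 2.48 ± 0.15 (adjusted p = 2.59e-16, pool fit 0.0675). The stathmin Stmn4, which regulates microtubule assembly, had 657, 826.5 and 1062 against 180, 292 and 368. Its rise of 1.63 ± 0.14 was called in both fits (1.55e-11 and 0.0170). Neither gene's windows overlap.

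Rrad, a small Ras-related GTPase, had 922, 913 and 1057 at 48 h but only 224, 146 and 156 at 24 h, against 119 to 179 in the earlier window. Its mean difference of 1.41 ± 0.14 thus belongs to the 48 h pool, and the pool fit did not call it (adjusted p = 0.999). Tgm1, a transglutaminase of the skin barrier, rose by 1.83 ± 0.16, with 105, 236.5 and 390 against 34, 59.5 and 96. The small proline-rich Sprr1a, an epidermal gene that promotes axon outgrowth, had 54 to 150 at 24-48 h and 40 to 74 at 6-12 h. It rose by 0.87 ± 0.17, and was below the 1.5-fold limit with 50 added to each value (0.52) and in the authors' deposited table (0.52). Tgm1 and Sprr1a were the called genes among 11 measured epidermal markers, whose median was 0.02.

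Further called effectors included Gch1, the rate-limiting enzyme of tetrahydrobiopterin synthesis (1.22 ± 0.14), with 158 to 422 in the later channels against 93 to 120. Cacna2d1, the calcium channel subunit that binds gabapentin, had 2343 to 6519 against 1773 to 2334 and rose by 0.91 ± 0.12. Its 48 h minus 24 h difference was 1.11 ± 0.17. The pool fit did not call Cacna2d1 (adjusted p = 0.602), and its difference in the authors' deposited table was 0.52, below 1.5-fold. The small heat shock protein Hspb1, among the brightest genes here, had 10436 to 16111 against 6940 to 8809 and rose by 0.70 ± 0.15. The windows of these genes do not overlap.

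Gap43, the growth cone protein used as the classic marker of axon growth, was not settled by its brighter probe. That probe read 4826, 941 and 3900 at 24 h and 5605, 5928 and 5930 at 48 h, against 2870, 2924 and 63 at 6 h and 2100, 68 and 3365 at 12 h. Single channels far below the others of their pool stood in both windows. The difference of 2.26 ± 0.67 was not called (adjusted p = 0.134), was called in 3 of 18 alternatives, without SN6h replicate 1 or 2 or SN12h replicate 3, with differences up to 2.79, was 1.19 without SN6h replicate 3 and 1.41 without SN12h replicate 2, and was 0.49 in the authors' deposited table. The other Gap43 probe was called at 0.60 ± 0.15 (adjusted p = 0.0386), against 0.23 in the authors' deposited table.

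**Figure D2:**
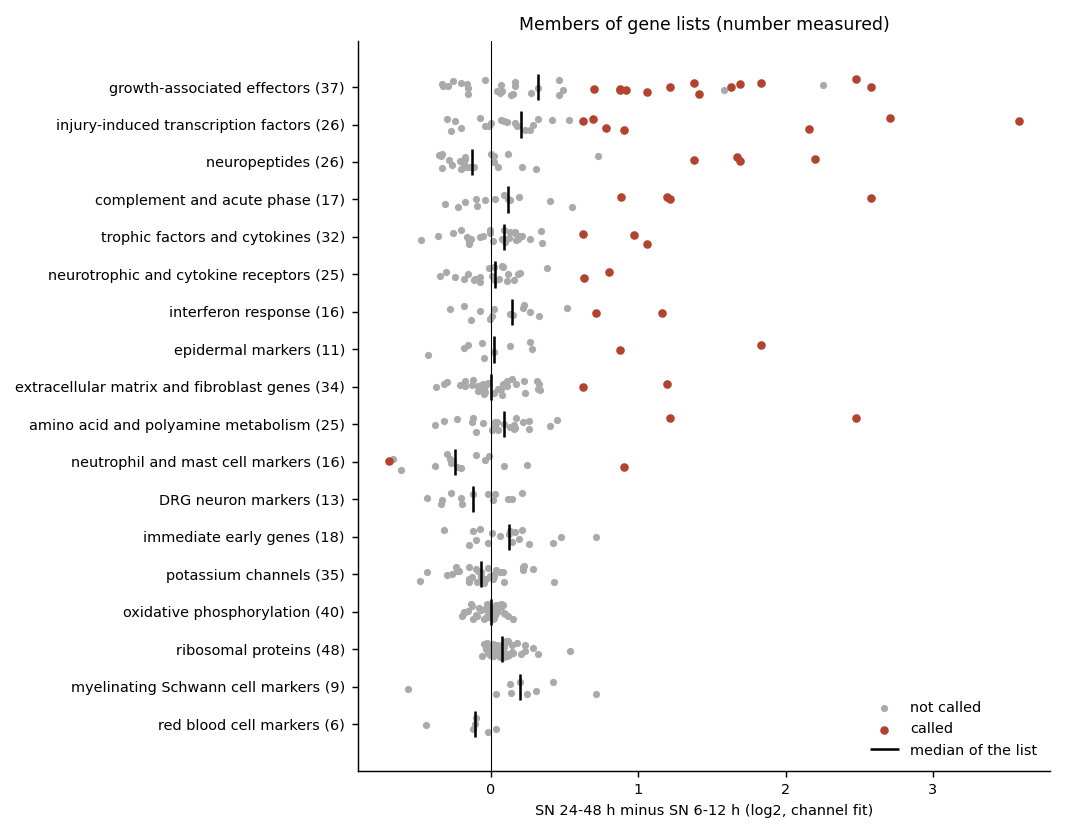
Log2 differences (24-48 h minus 6-12 h, channel fit) of the measured members of 18 gene lists, with the number measured in brackets; red points were called and black bars are list medians. The growth-associated list has 13 called genes above 0 and a median of 0.32, and the DRG neuron marker list has none and a median of -0.12.

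Among 26 measured neuropeptide genes 4 rose and 0 fell, against 0.686% of all probes called higher, while the median of the list was -0.13. Galanin (Gal), an inhibitory peptide, had 1604, 1833 and 232 at 24 h and 5616, 3692 and 630 at 48 h, against 589, 523 and 276 at 6 h and 56, 314 and 513 at 12 h. The windows overlap through 1 low channel at 24 h. Its difference of 2.2 ± 0.47 was called (adjusted p = 0.00547, pool fit 0.0675) and was not called with the 12 compared channels alone (2.25, adjusted p = 0.301) or without SN12h replicate 1 (1.68, adjusted p = 0.0549). The authors' deposited table gave 2.24.

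Urocortin (Ucn), a peptide of the corticotropin-releasing family, had 502, 432 and 491 at 48 h and 91, 87 and 112 at 24 h, against 49 to 83 in the earlier window. It rose by 1.69 ± 0.13, most of it between 24 and 48 h. Vasoactive intestinal peptide (Vip) had 298, 229 and 263 at 48 h and 82, 78 and 97 at 24 h, against 71, 93 and 49 at 6 h and 30, 36 and 29 at 12 h. Its rise of 1.67 ± 0.19 was 1.05 with 50 added to each value. The pool fit called neither (adjusted p = 0.741 for Ucn and 0.602 for Vip).

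The peptide precursor Vgf had 1648, 2267.5 and 2618 as lowest, median and highest later values, against 705, 846 and 1136, with no overlap. It rose by 1.38 ± 0.15, against 0.80 in the authors' deposited table. Neuropeptide Y (Npy) was not called between the windows (0.72 ± 0.33, adjusted p = 0.758). It had 3453, 942 and 934 at 48 h but 217, 427 and 214 at 24 h, against 1191, 481 and 323 at 6 h and 178, 295 and 289 at 12 h, so the windows overlap.

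The promoters of Ucn, Vgf and the cytokine gene Il6 are shown because these were the 3 of 39 genes called higher with a RefSeq promoter that hold the full cAMP response element TGACGTCA, a palindrome searched on both strands. The element was in 7.69% of those 39 promoters, in 2.7% of 4959 promoters of genes on the array and in 1.91% of all 27457. Each window runs over 250 bases before to 50 after the gene start in RefSeq's GRCr8 assembly, read 5′ to 3′ on the gene's strand, with matches in capitals. The Ucn promoter (chr6:30957836-30958135, plus strand) holds the element at -110 to -103, the Vgf promoter (chr12:25276971-25277270, minus strand) at -90 to -83 and the Il6 promoter (chr4:5894526-5894825, minus strand) at -162 to -155. The Vgf window also holds CACGTG, the E-box, at -65 to -60.
Ucn: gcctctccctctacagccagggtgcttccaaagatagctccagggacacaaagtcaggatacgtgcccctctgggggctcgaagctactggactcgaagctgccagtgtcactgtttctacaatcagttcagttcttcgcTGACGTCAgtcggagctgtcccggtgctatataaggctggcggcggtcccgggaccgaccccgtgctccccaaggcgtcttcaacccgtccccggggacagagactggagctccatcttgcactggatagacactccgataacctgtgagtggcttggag
Vgf: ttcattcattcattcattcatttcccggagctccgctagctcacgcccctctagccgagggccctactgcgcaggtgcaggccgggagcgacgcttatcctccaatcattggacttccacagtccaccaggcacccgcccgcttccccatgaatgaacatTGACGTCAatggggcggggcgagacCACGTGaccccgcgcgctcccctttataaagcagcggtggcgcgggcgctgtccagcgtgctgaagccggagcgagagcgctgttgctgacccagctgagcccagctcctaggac
Il6: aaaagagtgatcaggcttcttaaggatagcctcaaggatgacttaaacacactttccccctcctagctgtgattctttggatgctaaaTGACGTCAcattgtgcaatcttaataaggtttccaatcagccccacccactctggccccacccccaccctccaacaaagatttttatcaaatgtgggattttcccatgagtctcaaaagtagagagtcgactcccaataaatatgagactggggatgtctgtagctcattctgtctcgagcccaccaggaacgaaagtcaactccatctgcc

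Of the other motifs, the AP-1 site TGANTCA was in 5 of the 39 promoters (12.8%, against 5.55% of promoters on the array and 7.33% of all), CACGTG in 4 (10.3%, against 8.55% and 6.65%) and TTATGTAA in 1 (2.56%, against 0.504% and 0.881%), each on either strand. None overlapped the elements printed above. A match describes the letters in these windows and was not tested as a binding site.

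Secreted factors and immune genes formed another group. Of 32 measured trophic factors and cytokines 3 rose and 0 fell (median 0.09). Il6, a cytokine that injured neurons make, had 93, 112 and 143 at 24-48 h, against 40, 56 and 70 at 6-12 h. It rose by 1.06 ± 0.15 in both fits (adjusted p = 4.11e-06, pool fit 0.0209), and by 0.64 with 50 added to each value, since these are dim signals. Csf1, the macrophage growth factor, had 181 to 370 against 119 to 159 and rose by 0.97 ± 0.10. The matrix phosphoprotein Spp1, one of the brightest genes measured, had 25684 to 45811 against 18199 to 24853 and rose by 0.63 ± 0.13; this call was lost without SN12h replicate 3 or SN48h replicate 2.

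Of 17 complement and acute phase genes 4 rose and 0 fell, against 0.686% of all probes called higher, with a list median of 0.12. The secreted lectin Reg3b had 1045, 1354.5 and 2161 in the later channels, against 93, 229 and 515 in the earlier ones, and rose by 2.58 ± 0.21 (1.85 in the authors' deposited table). Its relative Reg3a, outside that list, rose by 0.87 ± 0.19. The protease inhibitors Serpina3n (1.22 ± 0.24), Timp1 (1.20 ± 0.13) and A2m (0.88 ± 0.12) rose mostly at 48 h. A2m, for example, had 1606, 1883 and 1970 at 48 h and 649, 615 and 655 at 24 h, against 517 to 656 in the earlier window. Serpinb2, the intracellular plasminogen activator inhibitor, had 117, 146 and 240 against 25, 47 and 65. Its rise of 1.73 ± 0.17 was called in both fits (1.1e-09 and 0.0170) and was 1.06 with 50 added to each value. Hepcidin (Hamp), the iron hormone, had 878, 470 and 491 at 48 h and 151, 217 and 179 at 24 h, against 107 to 150, and rose by 1.36 ± 0.17.

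Of 16 interferon response genes 2 rose, Mx2 (1.16 ± 0.17) and Ifitm3 (0.72 ± 0.11), both of them antiviral effectors. Among 25 neurotrophic and cytokine receptors 2 rose, the GDNF receptor Gfra1 (0.80 ± 0.16) and the tumour necrosis factor receptor Tnfrsf1a (0.63 ± 0.14), the last of which lost its call in 5 of 18 alternatives: the 12 compared channels alone, no dye term, 50 added, and without SN12h replicate 1 or SN24h replicate 2. The interleukin receptor Il4r, on none of the lists, rose by 0.87 ± 0.15 with 331 to 537 against 189 to 272.

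Gfap, the intermediate filament of reactive satellite glia, was the only called gene among 16 measured satellite glia and immature Schwann cell markers, whose median was 0.06. It had 673, 825 and 762 at 24 h and 642, 740 and 751 at 48 h, against 186, 183 and 123 at 6 h and 227, 135 and 241 at 12 h. Neither later pool overlapped an earlier one, and the rise of 2.04 ± 0.14 was called in both fits (adjusted p = 4.77e-14 and 0.0170). A second, dimmer Gfap probe with a mean of 104 gave 0.02 ± 0.16 (adjusted p = 0.996), so the rise rests on the brighter probe, whose difference was 1.61 in the authors' deposited table.

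Few transcripts were lower at 24-48 h. Np4, a neutrophil defensin, had 140, 164.5 and 230 at 24-48 h, against 185, 308.5 and 414 at 6-12 h. The earlier window was itself split: 414, 338 and 350 at 6 h and 185, 186 and 279 at 12 h. The 12 h channels overlapped the later window. The authors' deposited coefficients were -0.50 at 6 h, -1.43 at 12 h, -1.46 at 24 h and -1.57 at 48 h. Between the windows Np4 fell by 0.69 ± 0.17 (adjusted p = 0.025, pool fit 0.999). This call was lost in 8 of 18 alternatives, without SN6h replicate 1 or 3, SN12h replicate 3, SN24h replicate 3 and SN48h replicate 1 or 3 among them. The other was a probe with no gene name here, which fell by 0.81 ± 0.18. The kainate receptor subunit Grik1 had 499, 548.5 and 629 in the later channels, against 739, 861.5 and 941, with no overlap. Its difference of -0.57 ± 0.11 passed the adjusted p (0.00139) and not the 1.5-fold limit, and was -0.62 in the authors' deposited table. No member was called in either direction among 13 DRG neuron markers (median -0.12), 35 potassium channels (-0.07), 39 nociceptor receptors and transducers (-0.03) and 27 GABA and glutamate receptors (-0.14). The heat channel Trpv1 had the largest difference of the neuron markers, -0.44 ± 0.15 (adjusted p = 0.367).

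Several further lists held no call. Of 48 ribosomal protein genes, 40 oxidative phosphorylation genes, 37 synaptic vesicle and release genes, 30 neurofilament, tubulin and actin genes and 26 cholesterol and fatty acid synthesis genes, 0 were called. Their medians were 0.07, -0.0036, 0.0092, 0.07 and 0.0015. Of 18 immediate early genes 0 were called either, with a median of 0.12 and the largest difference in Egr2 (0.71 ± 0.19, adjusted p = 0.0663).

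Markers of other cell types were read in the same way. Of 10 macrophage markers 1 was called, Aif1, at 0.59 ± 0.15, a call kept in 2 of 18 alternatives (each channel left out in turn ended it) and shared by the DR lesion. The summed macrophage markers ran between 14585 and 23818 in the later channels and between 13998 and 19790 in the earlier ones. Of 16 neutrophil and mast cell markers 1 rose (the histamine-forming enzyme Hdc, 0.90 ± 0.15, 0.54 with 50 added) and 1 fell (Np4), and their sum was 1393 to 1639 against 1470 to 2321. Red blood cell markers were not called (0 of 6); their sum was 5815 to 8473 against 4910 to 14329. The beta globin gene Hbb carried that spread, with 5177, 4188 and 5669 at 12 h, against 13544, 13247 and 12477 at 6 h. A second, dim Hbb probe gave 0.48, opposite in sign to the -0.44 of the bright one, and neither was called in the channel or pool fit; the dim probe was called at 0.52 (adjusted p = 0.0278) when the authors' deposited table supplied the pool values. The summed complement and acute phase genes were 7980 to 12971 in the later channels, against 6312 to 6739, with no overlap. That sum includes the called Reg3b, Timp1, A2m and Serpina3n. Of the 17 genes 13 were not called, and the list median was 0.12. None of 13 lymphocyte, 9 myelinating Schwann cell, 16 endothelial and mural or 17 muscle and adipose markers was called. Whether cell numbers had a part in the differences was not tested.

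The called genes did not all move at one time. Over the 58 probes the largest step between neighbouring pools was 6 to 12 h in 5, 12 to 24 h in 31 and 24 to 48 h in 22, and by the authors' deposited table in 5, 21 and 32, with the same step in both for 45. The difference between the windows, which made the calls, weighs the 12 to 24 h step most. Steps were not counted over all probes, so this split only describes the 58. Gfap, Stmn4, Serpinb2, Il6 and Nfil3 made their largest step between 12 and 24 h and held it at 48 h, with 48 h minus 24 h differences of -0.08, 0.50, 0.49, -0.24 and -0.14, none of them called. Rrad, Ucn, Hamp, Tgm1 and Vip made it between 24 and 48 h. Atf3 and Reg3b made it between 6 and 12 h.

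The pools inside each window were also compared. For 12 h minus 6 h, 7 probes were higher (0.0828%) and 2 lower (0.0237%), among them Atf3 (2.70 ± 0.22), Reg3b (1.68 ± 0.29), the chemokine Ccl2 (1.39 ± 0.21), the synaptic fusion protein Snap25 (1.26 ± 0.20), the growth arrest gene Gadd45g (0.82 ± 0.18) and Hbb (-1.40 ± 0.19). Ccl2 and Snap25 did not differ between the windows by the test (0.13 ± 0.15 and 0.32 ± 0.14). With the 6 channels of SN12h and SN6h alone, limma called 0, and 80 had an unadjusted p below 0.05. Over single channels left out this count was 4 (without SN12h replicate 1) to 14 (without SN6h replicate 3), and it was 5 without SN6h replicate 2 or SN12h replicate 3.

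For 48 h minus 24 h, 19 probes were higher (0.225%) and 1 lower (0.0118%), and 15 of the 20 were also called between the windows. Rrad (2.48 ± 0.20), Npy (2.42 ± 0.46), Ucn (2.30 ± 0.19) and Csrp3 (2.09 ± 0.20) led. The 58 probes had a median of 0.53 for 48 h minus 24 h, against -0.04 for 12 h minus 6 h. Without SN48h replicate 1 the count was 13, and with the channels of these 2 pools alone it was 11.

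**Figure D3:**
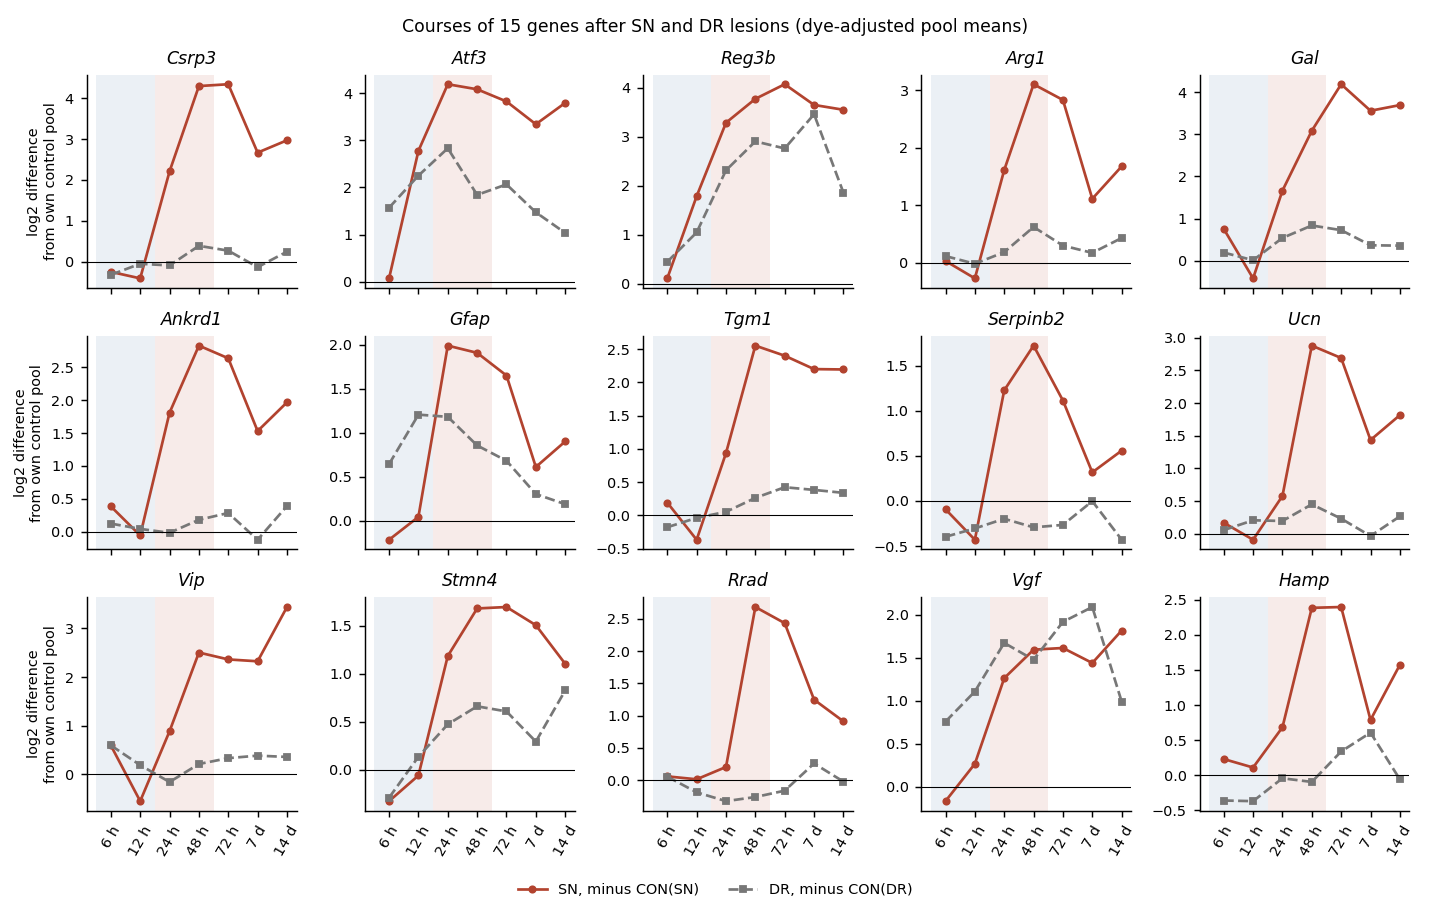
Dye-adjusted pool means of the 15 genes over 7 times, as log2 differences from the control pool of the same lesion: SN (red, solid) and DR (grey, dashed). Blue shading marks 6-12 h and red shading 24-48 h; after the SN lesion Csrp3 is at -0.25 and -0.41 in the earlier window and at 2.21 and 4.30 in the later one, and its DR line stays between -0.33 and 0.38 over the same 4 times.

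Set beside the CON(SN) pool, which the comparison did not use, the earlier mean lay within 1.5-fold of control for 53 of the 58 probes, above it for 4 and below it for 1. The later mean was at least 1.5-fold above control for 47. At later times 57 of the 58 were at or above the midpoint of the windows at 72 h, 36 at 7 d and 44 at 14 d, and 34 at all of these times. At or above the later mean itself were 42 at 72 h, 13 at 7 d and 19 at 14 d. The midpoint and the later mean come from the pools that made the calls. Shares over all probes were not counted for control or later times, so these counts describe the 58 only. Csrp3 averaged 1977 ± 133 at 72 h, 605 ± 109 at 7 d and 738 ± 28.1 at 14 d (SD, n = 3 channels each). Serpinb2 and Il6 were below the midpoint at 7 d, where they averaged 69.0 ± 11.8 and 59.3 ± 16.3 (SD, n = 3 channels each).

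The same windows after the DR lesion gave 37 calls (0.438%), 20 higher (0.237%) and 17 lower (0.201%). Of the 58 SN probes 6 were among those 20: Reg3b, Reg3a, Aif1, Stmn4, Vgf and 1 probe with no gene name. The call of Stmn4 after DR (0.65) was not shared by the authors' deposited table, which gave 0.07. That table gave DR differences of 1.89 for Reg3b, 0.90 for Reg3a, 0.93 for Aif1 and 0.78 for Vgf. Over the 58 the median DR difference was 0.14, and 43 were above 0. Reg3b had 427, 520 and 787 at 24-48 h after DR, against 101, 148 and 255 at 6-12 h, a rise of 1.86. Reg3a and Aif1 had DR differences of 1.10 and 0.92, beside 0.87 and 0.59 after SN.

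The difference between the lesions' changes was tested as an interaction. The channel fit called 48 probes (0.568%): 45 (0.532%) had a larger change after SN and 3 (0.0355%) a larger one after DR, and 30 of the 58 were among the 45. The SN change that made the 58 calls is also part of the interaction, so this overlap is no separate support. In the pool fit 0 were called, with 446 at an unadjusted p below 0.05 and a lowest adjusted p of 0.680, so the interaction calls compare these pools only. Without DR24h replicate 3 the channel count was 31. Csrp3 had 68, 80 and 121 at 24-48 h after DR, against 56, 69 and 91 at 6-12 h after DR, and an interaction of 3.25 ± 0.19 (adjusted p = 4.09e-16). Ankrd1 had 58, 63 and 88 against 53, 70 and 78 after DR, and an interaction of 2.16 ± 0.19.

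Atf3 had overlapping windows after the DR lesion, with 320, 730 and 1269 at 24-48 h, against 349, 632 and 792 at 6-12 h. Against the control pool of the same lesion it was 1.57 higher on the log2 scale at 6 h and 2.25 at 12 h after DR, beside 0.07 and 2.78 after SN. The authors' deposited coefficients did not share the gap at 6 h: 1.11 at 6 h and 2.12 at 12 h after DR, beside 1.00 and 3.35 after SN. Their differences between the windows were 0.57 after DR and 1.98 after SN. In the channel fit the interaction of Atf3 was 2.28 ± 0.21 (adjusted p = 4.22e-10). Gfap likewise had 230, 321 and 390 at 24-48 h after DR, against 206, 333 and 451 at 6-12 h, with an interaction of 1.94. The 3 genes with the larger DR change were Igfbp5, an insulin-like growth factor binding protein (-1.12), the clock output factor Dbp (-0.92) and the complement protease C1s (-0.65). None of the 3 was called after SN, at -0.07, 0.02 and 0.09.

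**Figure D4:**
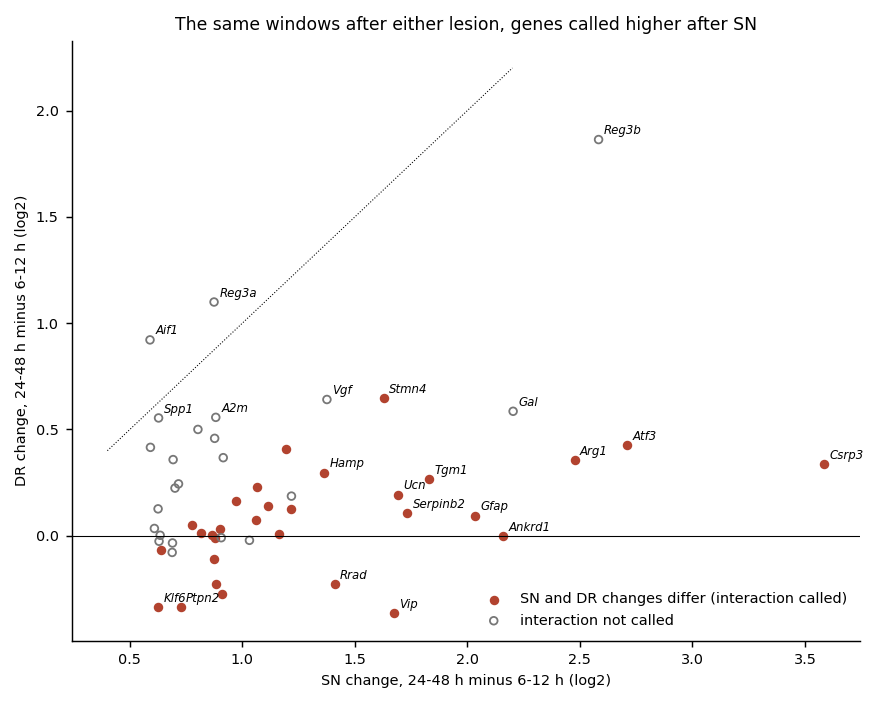
Log2 change between the windows after the SN lesion (x axis) and after the DR lesion (y axis) for the 53 genes called higher after SN; red points have a called interaction, open points do not, and the dotted line marks equal changes. Csrp3, Atf3, Arg1 and Ankrd1 lie far to the right at DR changes between -0.00095 and 0.43, and Reg3b lies high at 1.86.

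The authors' deposited table gave another reading of the same hybridisations, so it is not independent of the channel values. All 58 probes had a difference above 0 there and 43 reached 1.5-fold, which 0.792% of all probes did. Over all 8455 probes the correlation of the channel differences with those of the authors' deposited table was 0.55 across probes, which are not independent. The 2 probes called lower here also had to pass the adjusted p. By fold alone, that table gave 133 probes (1.57%) at least 1.5-fold lower and 67 (0.792%) at least 1.5-fold higher. With its coefficients as pool values the pool fit called 14 probes, 12 higher and 2 lower, 4 of them shared with the fit to channel means: Nfil3, Stmn4, Il6 and Serpinb2. Csrp3, Ankrd1 and Gfap were not called in that fit. The 2 lower were Grik1 and the tryptophan-degrading enzyme Tdo2 (-0.53).

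**Figure D5:**
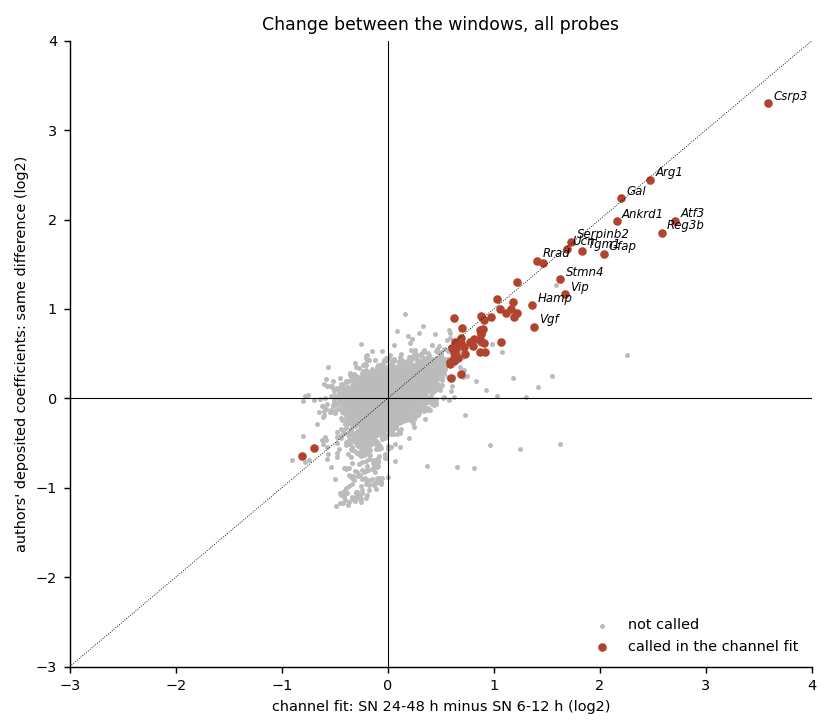
Log2 differences between the windows for 8455 probes in the channel fit (x axis) and from the authors' deposited coefficients (y axis); red points were called in the channel fit and the dotted line marks equal values. All called rises lie above 0 on both axes, several of them below the line (Atf3 at 2.71 and 1.98, Reg3b at 2.58 and 1.85), and the brighter Gap43 probe, not called, is at 2.26 and 0.49.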

How the data were processed

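RNA pools from L4, L5 and L6 ganglia were measured on 2-colour arrays. The deposited channel values are linear intensity values, normalised by the authors; the background correction and normalisation are not given in the sources used here. The authors also deposited log2 coefficients against their time zero, with standard errors; the submitters' processing notes name limma without a version. Intensities were log2 transformed here with no offset and no filter on dim probes, although the comparison had been set up for log2 values. limma 3.58.1 in R 4.3.3 fitted all 52 channels with terms for 16 groups and dye (channel fit), and the 16 pool means with the dye term removed (pool fit, 9 residual degrees of freedom). Which 2 channels shared an array is not given, so arrays were not used as a block.

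Of 8455 probes, 6907 had 1 gene symbol, 168 had several and 1380 were not listed. Each of 6028 named genes was represented by its brightest probe; 751 genes had several. No 2 of the 12 channels held identical values. Replicate numbers did not pair the channels: 4 of 18 same-number pairs had deviations correlated above 0.1. The script was tested on simulated data.

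Genes named were the 15 largest rises called in the channel fit that both pools and the authors' deposited coefficients shared; 11 known injury genes; up to 4 called members of each of 38 lists, or the largest difference where none was called; and the extremes of the pool fit, the interaction and the steps inside each window. Other genes named, such as Il4r, Tdo2 and second probes, were chosen after their values were seen. Members and lists were chosen with earlier results of these data known. Alternatives were other channels in the fit, no dye term, quantile normalisation, an offset of 50, dim probes left out, a replicate block, a random pool block, the authors' coefficients and each channel left out.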

Additional observations from a re-analysis of the deposited data

Results flagged for a closer look

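In 166 windows of 6 channels, each for 1 of 83 genes, 12 held a channel whose gap to its nearest neighbour was too large a share of the whole range by Dixon's 95% critical value; chance gives about 1 in 20 windows. In the 24-48 h window SN24h replicate 2 was the lowest channel for Gap43 (gap of 0.772 of the range), Nsf (0.636), Pfn1 (0.863) and Casp6 (0.655). In the same window SN48h replicate 1 was highest for Rpl11 (0.711) and Hbb (0.678) and lowest for Jun (0.642). In the 6-12 h window SN12h replicate 1 was lowest for Gal (0.678), Tap1 (0.797), Rpl11 (0.948), Hras (0.911) and Acta2 (0.824). These 3 channels held all 12.

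The change between the windows differed between the SN and DR lesions for 33 of the 83 genes by the interaction of the channel fit, which called 48 of all 8455 probes. Many of the 83 were chosen for a large SN change or a called interaction. Their share is thus a result of that choice and cannot be read against the share over all probes. The interaction of the pool fit called 0 of the 8455, where limma gave 446 at an unadjusted p below 0.05. The SN change minus the DR change on the log2 scale was above 0 for 30 of these genes: Csrp3 3.25, Atf3 2.28, Arg1 2.12, Ankrd1 2.16, Gfap 1.94, Tgm1 1.56, Serpinb2 1.63, Ucn 1.5, Vip 2.04, Stmn4 0.98, Rrad 1.64, Hamp 1.07, Gch1 1.09, Timp1 0.79, Mx2 1.16, Ptprh 0.97, Pdlim1 0.84, Il6 0.99, Csf1 0.81, Gadd45g 1.18, Hdc 0.87, Map3k6 1.11, Cdhr5 0.89, Sprr1a 0.98, Il4r 0.86, Litaf 0.80, Nfil3 0.73, Ptpn2 1.06, Hr 0.71, Klf6 0.96. It was below 0 for C1s (-0.65), Dbp (-0.92) and Igfbp5 (-1.12).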

How the results depend on the processing

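The channel fit called 49 to 63 probes under the other settings, against 60, and 48 to 66 with a channel left out. The interaction (48) gave 32 to 59, and 31 to 65 with a channel left out. The 12 h minus 6 h count (9) was 0 with the channels of both pools alone, where limma gave 80 at an unadjusted p below 0.05, and 4 to 14 with a channel left out. The 48 h minus 24 h count (20) was 11 with its own channels alone and 13 to 22 with a channel left out. The pool fit (8) gave 0 with the 7 SN pools alone (limma, 414 at an unadjusted p below 0.05), 14 with the authors' deposited coefficients, 5 without dim probes, 44 with the pool as a random block, and 4 to 19 with a channel left out. Of the 15 leading genes, 14 or 15 were called under each setting, and 14 to 15 with a channel left out. They were chosen as the largest called rises that the authors' deposited coefficients shared. The count with those coefficients was therefore fixed by the choice, and the others reuse the channels that made the calls. Replicate numbers did not pair the channels; with the replicate block the counts were 58 for the windows, 47 for the interaction, 10 for 12 h minus 6 h, 23 for 48 h minus 24 h, 8 in the pool fit and 15 of the 15 genes. Of 1573 single-gene values, 83 lost their call, 10 gained one and 0 reversed; 37 of 54 called genes were called under every alternative that gave them a value. Leaving out dim probes removed Serpinb2, Il6 and Sprr1a, so that setting gave them none. The cause of these shifts was not tested. With 2 pools in a window, the number of pools limits what can be shown.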
